A study of Mus musculus with 6 samples.

Results

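Transcript levels of 10 transcription factors of the pancreatic duct and of pancreatic progenitor cells were followed in mouse pancreatic tumour organoids after knockdown of Scrib. The factors were taken by gene symbol: Onecut1, Onecut2, Sox9, Pdx1, Prox1, Nr5a2, Ptf1a, Nkx6-1, Ehf and Elf3. All 10 were found among the 54453 Ensembl genes of the deposited tables. The organoids were 3 lines of pancreatic ductal adenocarcinoma of the KPC kind, T91, T113 and T118, whose labels give the genotype as KPF/FC without expanding it. Each line was infected with virus for a short hairpin RNA against the Renilla locus (the control) or against Scrib (hairpin number 5523), and gave 1 library with each, so that each hairpin group held 3 libraries. The donor of T91 was female and those of T113 and T118 were male, and the cultures had been passaged 10 (T91), 13 (T113) and 11 (T118) times by their labels. Organoids are epithelial cultures, grown here in Matrigel, a gel of extracellular matrix. Only 1 hairpin against Scrib was used, and how many tumour cells founded each line is not given in the sources used here.

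Pancreatic ducts, acini and islets all descend from progenitor cells that carry Pdx1, Sox9, Nkx6-1, Ptf1a, Prox1, Onecut1 and Nr5a2. As the organ matures, Ptf1a and Nr5a2 stay on in enzyme-secreting acinar cells, Nkx6-1 in insulin cells, and Sox9 and Onecut1 in duct cells. The ONECUT proteins bind DNA through a cut domain and a homeodomain, and Ehf and Elf3 belong to the epithelial branch of the ETS family. In pancreatic adenocarcinoma, cells with duct features are the tumour's epithelium, and Pdx1 and the epithelial ETS factors are usually discussed as part of its gland-like identity.

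The organoids had transcripts of duct epithelium, with some gut factors beside them. The duct keratin genes Krt7 and Krt8 had the highest levels of the duct genes, averaging 2249 and 2252 CPM over the 6 libraries. The channel gene Cftr averaged 94.4 CPM and the transporter gene Slc4a4 28.3 CPM, while the intestinal factor Cdx2 averaged 120 CPM. Of 20 duct effector genes, 18 or 19 per library reached 1 CPM (the count as a share of the library total, on the usual scale that adjusts for depth), and their summed level ran from 8371 to 13420 CPM. Acinar and endocrine transcripts were scarce: of 19 acinar genes, of which Amy2b is annotated as a pseudogene, no library had more than 2 at 1 CPM, and of 18 endocrine genes none had more than 3. The digestive enzyme genes Cela2a and Cela3b and the hormone genes Ins1, Ins2 and Iapp had 0 counts in all 6 libraries. Fibroblast markers summed to between 1.10 and 1.74 CPM in the control libraries and to between 1.48 and 7.82 CPM in the Scrib hairpin libraries, the highest value being that of T91. Of 9 such markers 2 passed the low-count filter, Col1a1 and Col1a2, at mean levels of 1.13 and 0.63 CPM. Their log2 fold changes were 1.60 (standard error 0.48) and 1.19 (0.46). Neither passed over all genes (adjusted p of 0.712 and 0.748 by edgeR's quasi-likelihood test). Their log2 ratios were 2.66 and 1.93 in T91, 0.62 and 0.21 in T113, and 1.10 and 0.87 in T118. Summed estimated counts per library ran from 24035559 to 36235773. Scrib itself fell to 19.3% of control (log2 fold change -2.38, SE 0.12, where SE is the standard error; adjusted p of 0.00582 by edgeR's quasi-likelihood test, adjusted by Benjamini-Hochberg) and was the 1 gene of 14169 tested that passed, which is 0.00706% of the genes.

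The 10 factors fell into 5 that were well measured and 5 that were nearly or wholly absent. Elf3, Ehf, Pdx1, Sox9 and Onecut2 passed the low-count filter and had at least 214 counts in every library. Nr5a2, Onecut1, Nkx6-1, Prox1 and Ptf1a stayed under 1 CPM in all 6 libraries, did not pass the filter and were not tested. The absent 5 hold the acinar factors Ptf1a and Nr5a2 and the insulin cell factor Nkx6-1, next to the progenitor and duct factors Onecut1 and Prox1. In bulk RNA such as this, fewer cells with a transcript and less transcript per cell cannot be told apart.

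**Figure D1:**
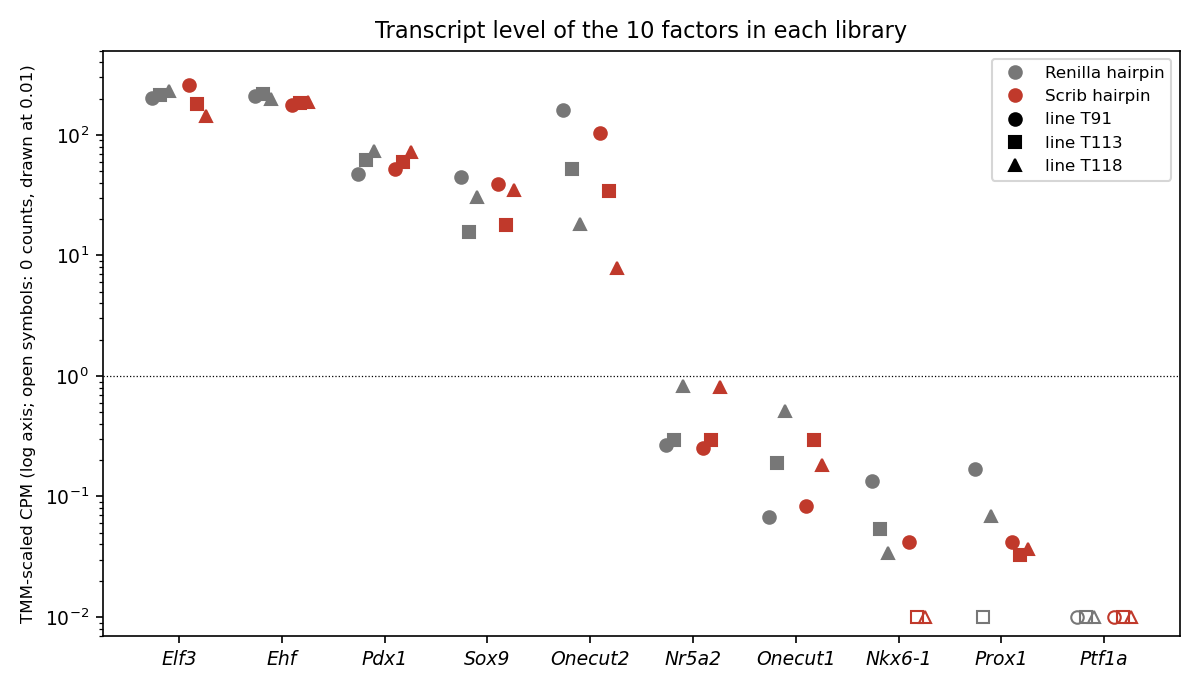
CPM of the 10 factors (log axis) in each of the 6 libraries, by hairpin (colour) and organoid line (symbol), scaled by TMM; 1 CPM is dotted and libraries with 0 counts are open symbols at the bottom. Elf3, Ehf, Pdx1, Sox9 and Onecut2 lie above 1 CPM in every library and the other 5 below it.

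Among the absent factors, Ptf1a, the basic helix-loop-helix factor that drives acinar enzyme genes, had 0 counts in all 6 libraries. At these depths a count of 0 allows a level of up to between 0.0828 and 0.125 CPM per library (3 counts; counting error only). Nkx6-1, a homeobox factor of progenitors and insulin cells, had 8 counts in all: 4, 2 and 1 in the control libraries of T91, T113 and T118, and 1, 0 and 0 in their Scrib hairpin libraries. Prox1, a homeobox factor of early progenitors, had 10 counts in all, with 5, 0 and 2 in the control and 1, 1 and 1 in the Scrib hairpin libraries in the same order. Neither gave a ratio between hairpins that such counts could resolve.

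Nr5a2, a nuclear receptor that works with Ptf1a in acinar cells, had between 6 and 24 counts per library, and both T118 libraries were the highest. Its control and Scrib hairpin counts were 8 and 6 in T91, 11 and 9 in T113, and 24 and 22 in T118, so that the within-line log2 ratio of CPM was -0.09, -0.02 and -0.02. The 95% counting intervals of these ratios were wide, from -1.89 to 1.63 in T91 and from -0.93 to 0.87 in T118. Onecut1, also called HNF6, had 40 counts in all, between 2 and 15 per library. Its counts went from 15 to 5 in T118 (log2 ratio -1.48, counting interval -3.30 to 0.05) and went from 7 to 9 in T113 and from 2 to 2 in T91, with no interval clear of 0.

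The ONECUT family was thus represented by Onecut2 and by the other family member, Onecut3, which is better known from neurons and endocrine cells. Onecut3 stood between 16.4 and 25.3 CPM in all 6 libraries, whereas Onecut1 did not exceed 0.512 CPM. Per kilobase of annotated exon the mean level over the 6 libraries was 4.15 ± 0.668 for Onecut3, 3.89 ± 3.64 for Onecut2 and 0.0538 ± 0.0399 for Onecut1 (SD, n = 6 libraries). Since reads were assigned to transcripts by sequence, it was measured how far the family could trade reads. The longest run of bases that the coding sequences of Onecut1 and Onecut3 share was 50 bases, at chr9:74863341-74863390 in Onecut1 and chr10:80496130-80496179 in Onecut3 (GRCm38, plus strand in both, GENCODE M21 transcripts). It is printed because it is the longest identical stretch of these coding sequences.
Onecut1 and Onecut3: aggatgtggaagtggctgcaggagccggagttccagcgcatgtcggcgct
Of the 31-base words in Onecut1 transcripts, 20 of 4081 also occurred in another ONECUT gene. A further gene, the noncoding Gm20649, overlaps Onecut1 on the same strand and shares 2142 of those words, but it had 0 counts in every library. Of the words in Onecut2, 61 of 16194 (0.377%) occurred in any other gene. For Ehf the share was 0.827%, for Sox9 1.34%, for Elf3 6.14% and for Pdx1 0%. The shared Elf3 words all lie in Gm26642, an antisense gene with at most 1 count per library.

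Per kilobase, Elf3 was the most abundant of the 10 factors, at 92.3 ± 18.05 CPM per kilobase (SD, n = 6 libraries), and its lowest library (64.5) lay above the highest library of every other factor. Ehf followed at 35.3 ± 2.80 and Pdx1 at 28.4 ± 4.90, and their ranges, 31.8 to 39.0 and 21.9 to 34.2, overlapped. Sox9 at 7.37 ± 2.79 lay below both, with a range of 3.82 to 10.8 that overlapped that of Onecut2 (0.482 to 10.02), whose mean was the lowest of the 5. The next factor, Nr5a2, was at 0.0772 ± 0.0469, below the lowest library of all 5 measured factors. The length used counts all annotated exons of a gene, whichever of its transcripts was expressed, and the order depends on it. In CPM without length, Elf3 and Ehf averaged 205 and 197, and their ranges, 143 to 258 and 177 to 218, overlapped.

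The bases before the gene starts were examined for a feature that the choice of factors did not use. RefSeq promoter sequences of GRCm38.p6 matched 7 of the 10 factors, with 9 starts. Entries for Onecut2, Sox9 and Ehf were not found in that table. Of the 9 windows of 250 bases before a RefSeq start, 4 were rich in CG (observed over expected CG above 0.6 and GC above 50%), against 30.8% of 32841 starts of all genes. By GENCODE positions not all windows lie before the gene. The Nkx6-1 window lies inside the gene, as does 1 of 2 windows each of Prox1 and Nr5a2. Those of Elf3 and Pdx1 lie partly inside. The 4 windows rich in CG belonged to Onecut1, Nkx6-1, Ptf1a and 1 of 2 starts of Prox1, all of them factors under 1 CPM. The windows of Elf3 and Pdx1 held 8 and 10 CG sites and did not meet the criterion, and neither did those of Nr5a2, with 2 and 6. The windows of the factors with the highest and the lowest level per kilobase are shown, with CG in capitals. The sequence for Elf3 (minus strand, chr1:135258569-135258722) leaves out the bases that GENCODE places inside the gene, and that for Ptf1a (plus strand, chr2:19445413-19445662) is whole. The 8 CG sites of Elf3 are those of its whole window, so the 154 bases shown hold fewer.
Elf3: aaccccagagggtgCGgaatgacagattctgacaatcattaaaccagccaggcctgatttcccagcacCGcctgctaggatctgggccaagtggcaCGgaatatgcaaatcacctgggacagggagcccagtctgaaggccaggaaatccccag
Ptf1a: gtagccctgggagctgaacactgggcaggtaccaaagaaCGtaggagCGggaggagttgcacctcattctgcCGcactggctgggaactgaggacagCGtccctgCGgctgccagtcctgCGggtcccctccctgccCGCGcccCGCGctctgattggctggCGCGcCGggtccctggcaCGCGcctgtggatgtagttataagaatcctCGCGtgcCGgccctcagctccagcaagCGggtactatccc
The Ptf1a window held 19 CG sites, where the median over all starts was 6. This is a description of sequence and level in 7 genes, and no test was made of it.

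The comparison of hairpins asked whether the factors change when Scrib is depleted. None of the 5 measured factors passed the test over all genes (0.00706% of all genes did), and Onecut2 had the log2 fold change of the largest size among them. At an unadjusted p under 0.05 there was 1 of 5 (Onecut2), against 6.61% of the 14169 genes. The median log2 fold change of the 5 was -0.19 (3 lower, 2 higher), and over all genes tested it was -0.0095. Onecut2 and Ehf were lower in all 3 lines, as were 15.5% of all genes tested, and no factor was higher in all 3 (14.7% of all genes). No factor had all its Scrib hairpin libraries above all control libraries (2.6% of all genes).

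Onecut2 was lower with the Scrib hairpin in each line. Its CPM went from 163 to 103 in T91, from 52.7 to 34.5 in T113 and from 18.2 to 7.83 in T118. The lines differed more than the hairpins did, so the ranges of the hairpin groups overlapped, and only the comparison within a line shows the difference. The log2 ratio was -0.66 for T91 (95% counting interval -0.73 to -0.59), -0.61 for T113 (-0.72 to -0.50) and -1.21 for T118 (-1.45 to -0.98). Fitted over the 3 lines it was -0.81 (SE 0.14, 95% interval -1.14 to -0.47), a level of 57.2% of control. The unadjusted p was 0.000901 and the adjusted p 0.501 by edgeR's quasi-likelihood test, adjusted by Benjamini-Hochberg. DESeq2's Wald test with the same terms called it (adjusted p of 0.00069), as did edgeR without the low-count filter (adjusted p of 0.00500), while limma-voom did not (0.471). Onecut2 (ENSMUSG00000045991) is protein-coding, lies on the plus strand of chromosome 18 from 64340020 to 64400987 and has 16234 bases of annotated exon.

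Ehf was slightly lower with the Scrib hairpin, and its groups did not overlap. It stood at 211, 218 and 200.2 CPM in the control libraries of T91, T113 and T118 and at 177, 185 and 189 CPM in their Scrib hairpin libraries. All 3 control libraries thus lay above all 3 others, as was the case for 2.14% of all genes tested. The group means were 209 ± 8.82 and 184 ± 6.24 CPM (SD, n = 3 each). The log2 fold change was -0.19 (SE 0.09, 95% interval -0.41 to 0.03), and this did not pass (adjusted p of 0.772 by edgeR's quasi-likelihood test). The ratio within a line was smallest in T118, at -0.08, against -0.25 in T91 and -0.23 in T113. Ehf (ENSMUSG00000012350) is a minus-strand gene on chromosome 2 (start 103263433, end 103303278).

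Elf3, the other epithelial ETS factor, went different ways in the 3 lines. It went from 202 to 258 CPM in T91, from 216 to 180 CPM in T113 and from 230 to 143 CPM in T118. The control libraries were close together, at 216 ± 13.5 CPM, and the Scrib hairpin libraries spread to either side of them, at 194 ± 58.7 CPM (SD, n = 3 each). The log2 ratio was 0.35 for T91 (counting interval 0.30 to 0.40), -0.26 for T113 (-0.31 to -0.21) and -0.68 for T118 (-0.74 to -0.62). The fitted log2 fold change was -0.20 (SE 0.19, 95% interval -0.66 to 0.26; adjusted p of 0.838 by edgeR's quasi-likelihood test), and it turned to 0.040 without T118, with -0.47 without T91. An interaction term, added after these values were seen, put the log2 response of T91 0.82 above that of the other lines (SE 0.20; unadjusted p of 0.0033, adjusted p of 0.12 by the same edgeR test). At an unadjusted p under 0.05, 16.3% of all genes had such a difference for T91, and 0.494% had an adjusted one. For T118 against the others the Elf3 difference was -0.72 (unadjusted p of 0.0147, adjusted p of 0.387 by edgeR), where 8.72% of all genes had an unadjusted p under 0.05 and 0.614% an adjusted one. Onecut2 had a T118 difference of -0.58 (unadjusted p of 0.0391, adjusted p of 0.540 by edgeR). For T113 none of the 5 factors had an unadjusted p under 0.05 (0.882% of all genes, and 0.0565% adjusted). Elf3 (ENSMUSG00000003051) is a minus-strand gene on chromosome 1 (start 135253575, end 135258568).

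**Figure D2:**
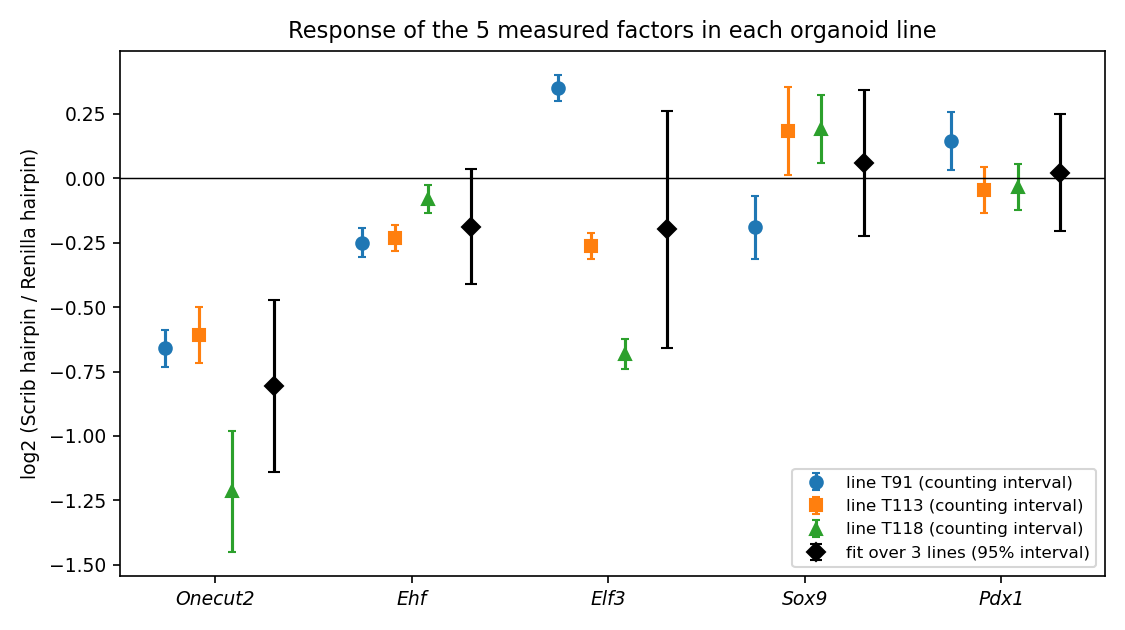
Log2 ratio of the Scrib over the Renilla hairpin for the 5 measured factors. Coloured symbols are single lines with 95% counting intervals, and black diamonds the fit over 3 lines with its 95% interval. Onecut2 and Ehf are below 0 in each line, Elf3 lies at 0.35 in T91 and -0.68 in T118, and Sox9 and Pdx1 lie near 0.

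For Sox9 and Pdx1 the difference between hairpins did not pass the test, and its interval lay on both sides of 0. Sox9, the factor that maintains progenitors and marks ducts, went from 44.6 to 39.0 CPM in T91, from 15.8 to 17.9 in T113 and from 30.7 to 35.0 in T118. Its log2 fold change was 0.06 (SE 0.12), with a 95% interval of -0.23 to 0.34 (adjusted p of 0.929 by edgeR's quasi-likelihood test). Pdx1, the homeobox factor that specifies the pancreas, went from 47.2 to 52.2 CPM in T91, from 61.9 to 60.01 in T113 and from 73.8 to 72.1 in T118. Its log2 fold change was 0.02 (SE 0.09, 95% interval -0.21 to 0.25; adjusted p of 0.970 by the same test). Both signs rest on single lines, since Pdx1 stood at -0.039 without T91 and Sox9 at -0.012 without T118. The antisense gene Plut, which overlaps Pdx1 without sharing exon bases, averaged 6.45 ± 1.97 CPM in control and 5.67 ± 2.09 CPM in Scrib hairpin libraries (SD, n = 3 each; log2 fold change -0.20, SE 0.17). Sox9 (ENSMUSG00000000567) is a plus-strand gene on chromosome 11 (start 112782224, end 112787760), and Pdx1 (ENSMUSG00000029644) one on chromosome 5 (start 147269959, end 147275848).

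In line T91, where Elf3 and Pdx1 were higher and Sox9 lower with the Scrib hairpin, the Scrib hairpin library also had the highest fibroblast marker sum (7.82 CPM, with Lum at 0) and the highest immune marker sum (5.95 CPM). Of the immune markers, Cd68 was at 3.70 CPM there, and ran from 2.08 to 4.06 CPM over all libraries. From the T91 control to that library, counts went from 3 to 27 for Lyz2 and from 1 to 18 for C1qa. Those of Ptprc went from 3 to 1, and Adgre1 had 0 in both. The part of these markers in the T91 values was not tested. Without T91 the log2 fold change was -0.88 for Onecut2 (adjusted p of 0.0689) and -0.16 for Ehf (adjusted p of 0.427), by edgeR's quasi-likelihood test.

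A second comparison asked how the factors differ between the tumour lines. Onecut2 and Sox9 differed between lines, and Pdx1 lay close to the threshold. By the F-test of the line terms in the same edgeR fit, 2 of 5 measured factors passed, against 14% of all genes tested. The lines differ in sex of the mouse (T91 against the others) and in passage as well as in tumour of origin, and these cannot be told apart.

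Onecut2 had the widest spread of the 5 measured factors, with line means of 133 CPM for T91, 43.6 for T113 and 12.99 for T118, and an adjusted p of 0.000418 by edgeR's F-test. All 3 pairs of lines differed, as did 6.06% of all genes between T113 and T91, 11% between T118 and T91 and 10.2% between T118 and T113. The T118 level was lower by 10.7-fold than that of T91 (adjusted p of 0.000229) and by 3.52-fold than that of T113 (adjusted p of 0.00308), and that of T113 by 3.03-fold than that of T91 (adjusted p of 0.00401), all by edgeR's quasi-likelihood test. Of the variance of log2 CPM of Onecut2 over the 6 libraries, 91.3% went with the line and 7.89% with the hairpin. Even the Scrib hairpin library of T91 had more Onecut2 than the control library of either other line.

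Sox9 was lowest in T113, with line means of 41.8 CPM in T91, 32.8 in T118 and 16.8 in T113 (adjusted p of 0.00569 by edgeR's F-test). T113 was 2.49-fold below T91 (adjusted p of 0.00472) and 1.95-fold below T118 (adjusted p of 0.0128 by edgeR's quasi-likelihood test). T91 and T118 did not differ past the threshold (adjusted p of 0.188, log2 difference -0.35 with a standard error of 0.14). Pdx1 had the opposite order of lines to Onecut2, with 49.7 CPM in T91, 61.0 in T113 and 73.0 in T118. Its F-test just missed the threshold (adjusted p of 0.0530 by edgeR), while the pairwise difference between T118 and T91 passed it (1.47-fold, adjusted p of 0.0301). Within a line the libraries of the 2 hairpins differed by at most 1.11-fold for Pdx1, and the line accounted for 96.3% of its variance.

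**Figure D3:**
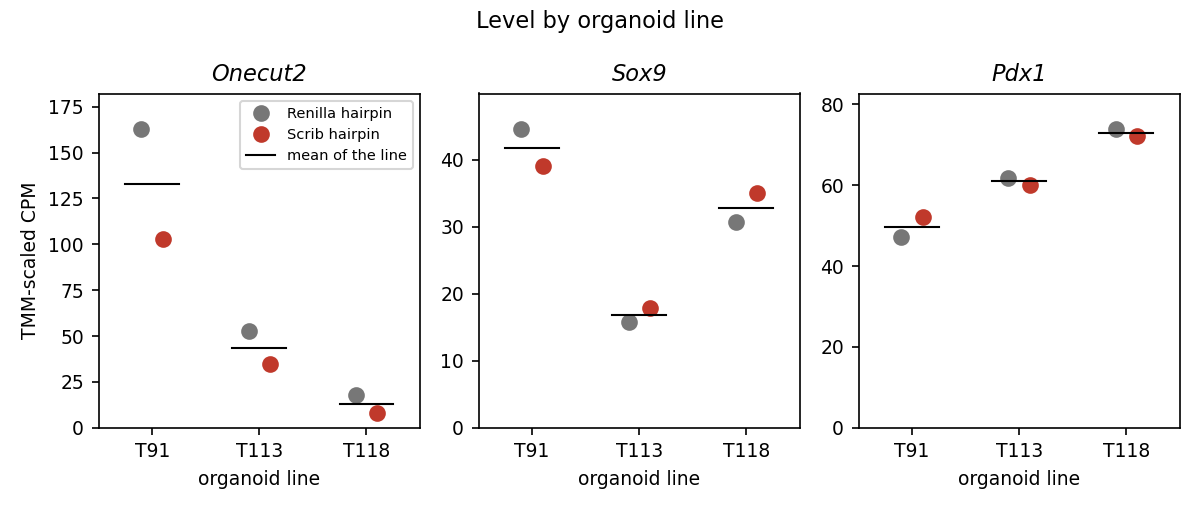
CPM of Onecut2, Sox9 and Pdx1 by organoid line, scaled by TMM, with 1 point per library coloured by hairpin and a bar at the mean of the line. Onecut2 goes from 133 CPM in T91 to 12.99 in T118, Sox9 is lowest in T113, and Pdx1 is highest in T118.

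Ehf and Elf3 did not differ between lines past the threshold. Line means of Ehf were 194 CPM in T91, 202 in T113 and 195 in T118 (adjusted p of 0.914 by edgeR's F-test). For Ehf the hairpin went with 81.1% of the variance and the line with 5.59%, unlike the other measured factors. These are shares of a small total, since Ehf ran only from 177 to 218 CPM. Its hairpin difference did not pass (adjusted p of 0.772 by edgeR's quasi-likelihood test). How many genes had a hairpin share this high was not counted. Pooled over all genes tested, the line held 73.9% of the summed variance and the hairpin 10.2%. Genes that vary most weigh most in that sum, so it does not give the share of a typical gene. Line means of Elf3 were 230 CPM in T91, 198 in T113 and 186 in T118 (adjusted p of 0.554), and 60.7% of its variance was left over by both terms.

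The genes whose pattern over the 6 libraries was most like that of a factor were found by the correlation of log2 CPM among 10240 protein-coding genes. For Onecut2 these included Socs3 (r = 0.996), a feedback inhibitor of cytokine signalling, and the chemokine gene Cxcl2 (0.994), and 100 genes had r above 0.95. Cxcl2 stood at 10.4 and 8.87 CPM in T91 (control, then Scrib hairpin), 2.75 and 1.76 in T113, and 0.921 and 0.220 in T118. For Sox9 the genes were Pdxk (0.996), Tgm1 (0.991) and Spns2 (0.988), and for Ehf Golph3 (0.972), Myo9b (0.965) and Crtc2 (0.956). These values are a description only, since the 6 libraries come from 3 lines and share them in pairs.

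Other transcription factors of pancreatic progenitors and ducts were counted in the same way. Of 18 on this list, 17 passed the low-count filter, 0 passed the hairpin test over all genes, and 4 lower and 0 higher had an unadjusted p under 0.05, where 5.06% of all genes were lower at that level and 1.55% higher. The median log2 fold change of the 17 was -0.07. Hnf4g, a nuclear receptor of gut and pancreas, had the smallest p of the list. It went from 3.76 to 2.02 CPM in T91, from 10.2 to 6.02 in T113 and from 15.7 to 9.55 in T118. Its log2 fold change was -0.78 (SE 0.15, adjusted p of 0.554 by edgeR's quasi-likelihood test), close in size to that of Onecut2. Sox4, a SOX factor of progenitors, had one of -0.66 (0.15), the zinc finger factor Glis3 one of -0.34 (0.12) and the nuclear receptor Hnf4a one of -0.30 (0.12). The list's members differed between lines as well, with 11 of 17 past the F-test of the line terms, against 14% of all genes. Sox4 stood at 51.7 and 35.96 CPM in T91 but at no more than 1.67 CPM in the other lines, and Sox17, a factor of biliary progenitors, at no more than 1.64 CPM in T91 but at 27.8 to 37.9 CPM in T118.

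Close relatives of the 10 factors were examined in the same way. Of 14 relatives, 8 passed the filter and 0 passed the hairpin test over all genes. Spdef, an ETS factor of mucus-secreting cells and a relative of Ehf and Elf3, had a log2 fold change of -1.41 (SE 0.47, adjusted p of 0.745 by edgeR's quasi-likelihood test). Most of the Spdef transcript was in T113, at 16.1 CPM in control and 10.3 CPM with the Scrib hairpin, a log2 ratio of -0.65. The ratios were larger where Spdef was low, at -1.12 in T91 (68 and 24 counts) and -3.15 in T118 (63 and 5 counts). Ubiquitous ETS factors were nearer to 0, with Elf1 at -0.13 (0.11), Ets2 at -0.10 (0.09) and Elf4 at -0.05 (0.14). Onecut3 had a log2 fold change of 0.15 (SE 0.11, 95% interval -0.12 to 0.42), and its ratio was above 0 in each line, though with counting intervals that include 0 in T91 and T113, while that of Onecut2 was below 0 in each. Nkx6-3, a stomach relative of Nkx6-1, was in T113 alone, at 64.8 CPM with the control and 67.9 CPM with the Scrib hairpin, and had 0 counts in the other 4 libraries. It was not tested, since the filter asks for 3 libraries with counts.

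Duct effector genes, which encode channels, keratins, surface proteins and some secreted or internal proteins of duct cells, were counted against the same background. Of 20 on the list 19 passed the filter, 15 were lower and 4 higher, where 7339 of all 14169 genes tested were lower. Of the 19, 0 passed the hairpin test over all genes, and 2 were lower at an unadjusted p under 0.05 (5.06% of all genes). Their median log2 fold change was -0.17, with medians of 0.04 (T91), -0.10 (T113) and -0.39 (T118). The bicarbonate transporter gene Slc4a4 had a log2 fold change of -0.62 (SE 0.20), the annexin gene Anxa4 one of -0.32 (0.12), the osteopontin gene Spp1 one of -0.28 (0.12) and the chloride channel gene Cftr one of -0.30 (0.14). The duct keratin genes Krt7 and Krt19 had ones of 0.07 (0.10) and -0.25 (0.18). Of the 19, 6 had the signs of Elf3 in the 3 lines, namely Car2, Epcam, Krt19, Krt23, Krt8 and Tspan8. That pattern was chosen after Elf3 was seen, and 17.1% of all genes tested had it. Krt19 had log2 ratios of 0.25 (T91), -0.29 (T113) and -0.70 (T118).

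Genes typical of acinar and endocrine cells were mostly under 1 CPM, as were Ptf1a, Nr5a2 and Nkx6-1. Of 19 acinar genes 17 stayed under 1 CPM in all 6 libraries, and of 18 endocrine genes 14 did. Bhlha15, an acinar and secretory cell factor, was the best measured of them, at 3.75 CPM in control and 2.95 CPM in Scrib hairpin libraries (log2 fold change -0.35, SE 0.21). The elastase gene Cela1 (-0.79, SE 0.42) and Reg1 (-0.64, SE 0.76) were the other acinar genes tested, and Mafa (-0.45, SE 0.35) and Sst (-0.78, SE 1.02) the endocrine ones, all 4 at mean levels under 1 CPM. Neurog3, the factor that starts endocrine differentiation, did not pass the filter. It had 96 counts in the control and 42 in the Scrib hairpin library of T113 (2.59 and 1.37 CPM). No library of the other lines had more than 5. Gut and stomach factors varied in level. Of 10 on the list, 3 stayed under 1 CPM in all 6 libraries. Between 5 and 7 reached 1 CPM in a control library and between 4 and 6 in a Scrib hairpin library. The intestinal homeobox factor Cdx2 stood at 120 CPM in control and 121 CPM in Scrib hairpin libraries (log2 fold change 0.03, SE 0.10). Of 10 gut and stomach factors 6 passed the filter, 4 of them lower and 2 higher, and 0 passed the test over all genes. By p these were led by Spdef, Atoh1 (-0.96, SE 0.41), Foxq1 (-0.40, SE 0.18) and Isx (-0.26, SE 0.12).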

How the data were processed

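The 6 libraries were made from mRNA of organoids, per the labels' protocols. Estimated counts for each Ensembl gene, not scaled for depth, were deposited; Salmon 1.4.0, DESeq 2 and GRCm38 (mm10) are named in the submitters' processing notes. No annotation or strand setting is named in the sources used here, so antisense overlaps may not be separated. Symbols, positions and exon lengths came from GENCODE M21 of GRCm38 (54200 of 54453 identifiers matched). Counts were rounded and analysed in R 4.3.3 with edgeR 4.0.16: filterByExpr (minimum count 10; 14169 genes), TMM, and robust quasi-likelihood tests with terms for line and hairpin, two-sided, Benjamini-Hochberg adjusted over all genes tested, threshold 0.05. The design leaves 2 residual degrees of freedom. Each line received both hairpins, which pairs the libraries; deviations from group means correlated within lines at 0.621 (T91), 0.666 (T113) and 0.662 (T118). With 1 library of each hairpin in a line, no spread between cultures of a line is known, and p-values measure only the spread between these libraries. CPM refers to TMM-scaled library sizes, except in marker sums and counts of genes at 1 CPM, which use unscaled ones. Ratios within a line carry 95% Clopper-Pearson counting intervals, which cover counting error only, while line ratios of genes other than the 10 factors, list medians by line, variance shares and pattern likeness used log2 CPM with a prior count of 2. On simulated data the hairpin test called more unchanged genes than its threshold allows, so adjusted p-values close to the threshold may be too small. Alternatives used DESeq2 1.42.0, limma 3.58.1, other filters and scalings, and left out each line. The interaction terms leave 1 residual degree of freedom and were added after values were seen. The factors, lists and tests were chosen with earlier results of these data known. Genes named were Scrib, the 10 factors, up to 4 genes per list by p, list-defining genes at or near 0 and the 3 genes most like a factor, for the 2 factors with the smallest p of each test. Sox17, Gata6, Elf4, Nkx6-3, Plut, Krt7, the duct genes with the signs of Elf3, Neurog3, Cdx2, Col1a1, Col1a2, the sequence comparisons and the promoter feature were chosen after values were seen. Some genes that the rule takes in are not reported here.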

Additional observations from a re-analysis of the deposited data

Results flagged for a closer look

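Elf3 moved in opposite directions in different lines beyond counting error, with a log2 ratio of Scrib over Renilla hairpin of 0.35 (T91), -0.26 (T113) and -0.68 (T118). Sox9 did so too, at -0.19 (T91), 0.18 (T113) and 0.19 (T118), though its counting interval in T113, 0.011 to 0.35, came close to 0. How many of all genes tested did the same was not counted. Each ratio compares 1 library with 1 library, and the counting intervals hold no spread between cultures. By edgeR's interaction term the response of T91 against the other lines had an adjusted p of 0.12 for Elf3 and 0.363 for Sox9, so neither difference passed over all genes tested. Of 19 duct effector genes tested, 6 had the signs of Elf3, as did 17.1% of all genes tested, and their differences between lines were not tested.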

How the results depend on the processing

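With the line as a replicate block (the paired fit used throughout) 1 gene and 0 factors passed the hairpin test, and without the block the counts were again 1 and 0, with Onecut2 at a log2 fold change of -0.69 (standard error 1.09). Without the low-count filter 64 genes and 1 factor passed, and by DESeq2 63 genes and 1 factor, Onecut2 in both cases; limma-voom called 8 genes and 0 factors. Leaving out a line gave between 9 and 94 genes for the hairpin (94 without T91, 9 without T113 and 25 without T118) and 0 factors. Onecut2 was below 0 in each of its 10 alternatives, from -0.92 to -0.64, with adjusted p from 0.00069 to 1, and Ehf in each of its 10, from -0.24 to -0.16. Leaving out a line gave Pdx1 from -0.039 (without T91) to 0.058, Sox9 from -0.012 (without T118) to 0.19 and Elf3 from -0.47 to 0.040 (without T118), each with a turned sign. For the lines, 1989 genes and 2 factors passed; the stricter filter gave 1310 genes, and leaving out a line gave between 1209 and 3305 genes and 1 or 2 factors. Sox9 lost its call without T113 (adjusted p of 0.438), and Pdx1 gained one with DESeq2 size factors (0.0483), without the filter (0.0179), without the hairpin term (0.0388) and by DESeq2 (0.0101). Where no smaller number of samples or genes shows the cause, it was not tested. The 5 factors under 1 CPM did not pass the low-count filter and were not tested in the main fit. Their counts were too few to resolve a difference between hairpins.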
